A study of Mus musculus with 45 samples.

Results

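The RNA levels of 10 genes that set the passage of a cell through G1 were followed in mouse embryonic stem cells (ESCs) as they left the naive state. The genes are the D-type cyclins Ccnd1, Ccnd2 and Ccnd3, the E-type cyclins Ccne1 and Ccne2, the inhibitors of cyclin-dependent kinases (Cdks) Cdkn1b and Cdkn2a, and the transcription factors Myc, Mycn and Mycl. They were taken by gene symbol from the 35372 genes of the count tables, and each of the 10 symbols was present once. D-type cyclins activate Cdk4 and Cdk6 and E-type cyclins activate Cdk2, and these kinases phosphorylate the retinoblastoma proteins, which frees E2F factors to turn on the genes of S phase. Cdkn1b encodes p27Kip1, an inhibitor of Cdk2 complexes, whereas Cdkn2a encodes the Cdk4 and Cdk6 inhibitor p16Ink4a and, from another first exon and reading frame, p19Arf, which stabilizes p53. Myc proteins drive genes of growth and ribosome synthesis, and ESCs kept in serum with LIF are known for a short G1 with little D-type cyclin activity.

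Strand-specific RNA-seq covered 45 libraries of E14tg2a, a wild-type male ESC line of the 129/Ola strain, so every value comes from 1 line. Cells were first kept in 2iL, which is serum-free N2B27 medium with LIF and the inhibitors PD0325901 of Mek and CHIR99021 of Gsk3, or in SL, which is serum with LIF. They were then differentiated in suspension in serum without LIF (named EB in the sample labels), or as attached layers in N2B27 with Fgf2 and ActivinA (FA, named EpiSC) or in N2B27 alone (named Neural), and collected at days 0, 1, 1.5, 2, 2.5, 3, 5 and 7. Each starting medium, differentiation course and day had 1 library, except that SL day 0 was 1 library for all 3 courses and that FA day 5 from 2iL was not analysed here. The 3 courses of a day therefore stood in for replicates when days or starting media were compared, and the p-values measure only the spread between these libraries. In comparisons of courses the media and days were the replicates, and serum and suspension culture cannot be told apart. Successive days of a course belong to 1 culture series, so these p-values may be too small.

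The libraries held 13093226 to 39804240 counted reads (median 18222720). The 8 of the serum course from 2iL had a median of 34490692.5 reads, against 17297450 for the other 37, of which the SL serum library of day 2 held 37071102. Levels are given as read counts scaled to the library total (CPM), for which 3 counts in a library of median depth correspond to 0.165 CPM. A gene was called changed where the quasi-likelihood test of edgeR gave an adjusted p under 0.05. Marker genes of several cell types were summed in each library. Summed over Nanog, Klf4, Esrrb, Tfcp2l1, Zfp42 and Prdm14, naive markers were at 3942 to 4181 CPM in the 3 libraries at 2iL day 0 and 45.5 to 300.0 CPM in the 11 libraries of days 5 and 7. At those 2 days, 6 neural markers summed to 390 to 664 CPM in N2B27, 175 to 422 CPM in FA and 97.9 to 263 CPM in serum. They were already at 83.3 to 94.8 CPM at 2iL day 0. In N2B27 at days 5 and 7, 6 endoderm markers summed to 1152 to 2674 CPM, above the neural markers. The 5 mesoderm markers summed to 86.4 to 593 CPM in serum against 5.91 to 31.9 CPM in the other courses. The 4 epiblast markers summed to 433 to 756 CPM in FA, 313 to 2465 CPM in serum and 132 to 325 CPM in N2B27. The libraries are bulk RNA, in which a change in the share of a cell type cannot be told apart from a change per cell.

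At day 0 the 3 Myc genes and 3 of the 5 cyclin genes differed between the starting media. Mycl, Ccnd1, Ccne2, Cdkn2a and Mycn were higher in 2iL than in SL, and Ccnd2 and Myc were lower. These are 7 of the 10 genes, against 30.8% of the 14948 genes tested. Mycl was at 42.8, 39.9 and 41.7 CPM in the 2iL libraries that opened the serum, FA and N2B27 courses and at 5.87 CPM in SL. Myc was at 2.02, 1.06 and 1.49 CPM in 2iL and 8.39 CPM in SL. For both genes the SL library lay outside the range of 2iL, in opposite directions, with a difference of log2 2.88 ± 0.21 SE, adjusted p = 5.04e-05 for Mycl and log2 -2.36 ± 0.38 SE, adjusted p = 0.00221 for Myc.

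Among the D-type cyclins, Ccnd1 was at 118, 122 and 73.5 CPM in 2iL and 32.0 CPM in SL (log2 1.75 ± 0.27 SE, adjusted p = 0.00164). Ccnd2 was at 0.833, 0.133 and 0.934 CPM in 2iL, from 28, 2 and 20 counts, and at 11.5 CPM in SL from 210 counts (log2 -4.01 ± 0.54 SE, adjusted p = 0.000902). The 3rd of them, Ccnd3, was at 167, 189 and 201 CPM in 2iL and 212 CPM in SL, and did not pass the test (log2 -0.13 ± 0.19 SE, adjusted p = 0.631). Thus 1 D-type cyclin was higher in 2iL, 1 was lower and under 1 CPM there, and for 1 no difference was detected. Ccne2 was higher in 2iL (log2 0.89 ± 0.27 SE, adjusted p = 0.0324), while Ccne1, at 108, 120.4 and 93.3 CPM in 2iL and 135 CPM in SL, did not pass (adjusted p = 0.232).

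Of the inhibitors, Cdkn2a was at 7.82, 8.45 and 10.3 CPM in 2iL and 4.11 CPM in SL (log2 1.17 ± 0.33 SE, adjusted p = 0.0247), and Cdkn1b at 43.5, 47.1 and 48.9 and 35.4 CPM, which did not pass (adjusted p = 0.0835). Mycn was at 53.1, 62.2 and 54.8 CPM in 2iL and 37.7 CPM in SL (log2 0.65 ± 0.17 SE, adjusted p = 0.0204). The SL side of these differences is 1 library, whose spread is assumed to be that of 2iL. When the spread was taken from all 45 libraries, with the courses as part of it, Ccnd1 and Mycl still passed. The calls of Ccnd2, Ccne2, Cdkn2a, Myc and Mycn were lost (adjusted p = 0.0584, 0.104, 0.576, 0.0558 and 0.540). That of Ccne2 was also lost without the 2iL library of the serum course (adjusted p = 0.0577). In the SL library the 6 endoderm markers summed to 423 CPM, against 3.06 to 5.32 CPM in 2iL, and the naive markers to 2301 CPM. The part of cells with these markers in the differences was not tested.

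**Figure D1:**
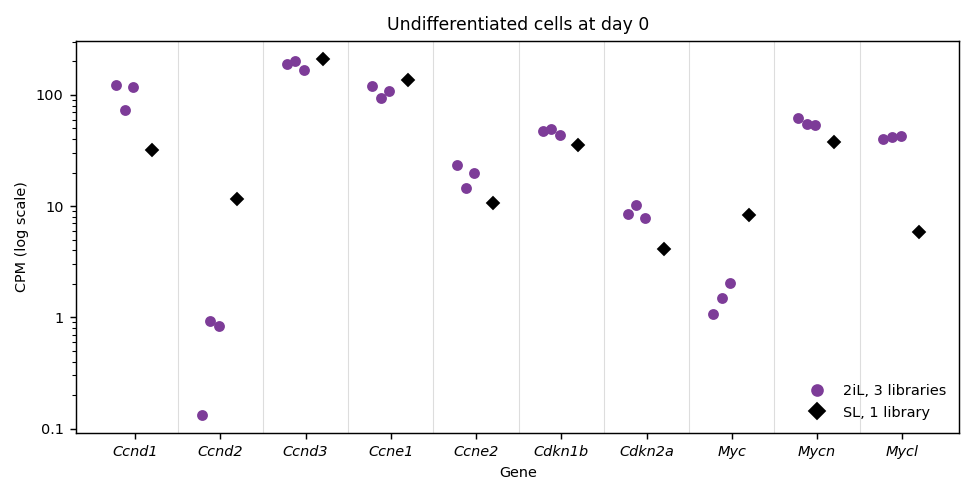
CPM on a log scale of the 10 genes in undifferentiated cells, with each of the 3 libraries in 2iL as a circle and the 1 library in SL as a diamond. Ccnd2 and Myc lie below the SL library in 2iL, with Ccnd2 between 0.133 and 0.934 CPM in 2iL against 11.5 in SL, and Mycl lies between 39.9 and 42.8 CPM in 2iL against 5.87 in SL.

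From 2iL, the first day of differentiation brought Ccnd2, Myc, Ccne1 and Ccne2 up and Cdkn1b and Mycl down. These 6 of 10 genes compare with 28.6% of the 16306 genes tested. From day 1 to day 3, 4 of 10 genes changed, against 45.6% of all genes. From day 3 to day 7, 2 of 10 did, against 28.2%. Between day 1 and day 2, a comparison chosen after the values were seen, 3 of 10 changed, against 18.2%. The counts for day 3 and day 7 were near the share of all genes. From SL, 2 of 10 genes changed at day 1, against 6.56% of the 16482 genes tested with the single day 0 library. From day 1 to day 2, a comparison also chosen after the values were seen, 2 of 10 changed, against 19.5% of all genes. Ccnd3 was called in both of these steps. From day 1 to day 3, 5 of 10 changed (43.9%), and from day 3 to day 7, 3 of 10 did (31.6%). These last 3 counts were near the share of all genes.

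All 3 D-type cyclin genes were lower at day 2 than at day 1 in cells from 2iL. Ccnd1 (ENSMUSG00000070348, chromosome 7, 144929931 to 144939925, GRCm38) went from 121, 114 and 89.0 CPM at day 1 in serum, FA and N2B27 to 27.3, 48.2 and 33.2 CPM at day 2. Every day 2 value lay below every day 1 value, and Ccnd1 fell from day 1 to day 2 (log2 -1.59 ± 0.38 SE, adjusted p = 0.00914), a call lost without the FA course (adjusted p = 0.125). It was at 84.2, 144 and 180.5 CPM at day 7, where the rise from day 3 did not pass (log2 0.94 ± 0.37 SE, adjusted p = 0.0681). It did with DESeq2 and in fits without the serum or the N2B27 course. From SL, where it started at 32.0 CPM, Ccnd1 was at 58.2, 56.2 and 57.5 CPM at day 1 and 49.7, 89.5 and 69.5 CPM at day 2, and 2 of the 3 courses were higher at day 2 than at day 1. The changes from SL day 0 to day 1 (log2 0.89 ± 0.49 SE, adjusted p = 0.298), from day 1 to day 2 (adjusted p = 0.528) and from day 1 to day 3 (log2 0.53 ± 0.23 SE, adjusted p = 0.0734) did not pass.

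Ccnd2 (ENSMUSG00000000184, chromosome 6, 127125162 to 127152193) had the widest range of the 10 genes, from 0.133 CPM at 2iL day 0 to 519 CPM. From 2iL it rose from below 1 CPM to 20.7, 67.0 and 42.3 CPM at day 1 in serum, FA and N2B27, a fitted change of 55.3-fold (log2 5.79 ± 0.88 SE, adjusted p = 0.000158). It then fell to 5.22, 13.1 and 11.7 CPM at day 2 (log2 -2.05 ± 0.67 SE, adjusted p = 0.0448). This call was lost without a term for the course (adjusted p = 0.241) and without the FA or the N2B27 course. All 3 courses were thus higher at day 1 than at day 0 and lower again at day 2, with serum the lowest of the 3 on both days. The later rise came at different times. In N2B27 it reached 53.5 CPM at day 3, 519 CPM at day 5 and 275 CPM at day 7. In serum it was still at 2.47 CPM at day 3 and then 24.8 and 91.0 CPM. From SL it was at 20.1, 37.2 and 353 CPM at day 5 in serum, FA and N2B27 and 157, 89.2 and 197 CPM at day 7, so N2B27 was again the highest course at both days. The rise from day 3 to day 7 passed from 2iL (log2 3.01 ± 0.69 SE, adjusted p = 0.00556) and from SL (log2 3.17 ± 0.78 SE, adjusted p = 0.00727). Both calls were lost without the course term (adjusted p = 0.0977 and 0.0806) and in fits of the compared days alone. They were also lost without the FA course from 2iL or the serum course from SL.

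Ccnd3 (ENSMUSG00000034165, chromosome 17, 47505051 to 47599691) fell by day 2 in each course and from both media. From 2iL it was still at 170.2, 166 and 172 CPM at day 1 in serum, FA and N2B27, close to day 0, and then fell to 39.9, 68.4 and 73.5 CPM at day 2 (log2 -1.45 ± 0.25 SE, adjusted p = 0.00114). From SL it fell from 212 CPM to 88.3, 88.8 and 89.4 CPM at day 1 (log2 -1.21 ± 0.22 SE, adjusted p = 0.00542) and went on to 43.7, 52.4 and 55.9 CPM at day 2 (log2 -0.81 ± 0.12 SE, adjusted p = 0.000249). The 2 media did not overlap at day 1. The change from day 0 to day 1 itself was not shown to differ between them (adjusted p = 0.242). The changes from day 1 to day 3 passed from 2iL (log2 -1.63 ± 0.25 SE, adjusted p = 0.000103) and from SL (log2 -0.54 ± 0.12 SE, adjusted p = 0.00171), the latter not without the FA course. The SL day 1 call was lost without the FA course (adjusted p = 0.111). A later rise by day 7, to 89.8, 83.5 and 86.2 CPM from SL, passed from day 3 (log2 0.47 ± 0.12 SE, adjusted p = 0.00769), but not without the course term (adjusted p = 0.0721), without the FA course or in a fit of the compared days alone.

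Both E-type cyclin genes rose on the first day from 2iL. Ccne1 (ENSMUSG00000002068, chromosome 7, 38097984 to 38107534) went from 108, 120.4 and 93.3 CPM in 2iL to 361, 234 and 183 CPM at day 1 in serum, FA and N2B27, a rise that passed (log2 1.26 ± 0.27 SE, adjusted p = 0.00216). Every day 1 value lay above every day 0 value. From SL it went from 135 CPM to 273, 229 and 186 CPM (log2 0.82 ± 0.24 SE, adjusted p = 0.0469). This call was close to the threshold and was lost with scaling to library totals, with no filter on low counts, in a fit of the compared days alone and without the serum or the FA course. Ccne1 then fell. It was at 121, 118 and 88.7 CPM at day 3 from 2iL (log2 -1.27 ± 0.26 SE, adjusted p = 0.00114) and 135, 142 and 114 CPM from SL (log2 -0.84 ± 0.10 SE, adjusted p = 1.49e-05). At day 7 it reached 37.7, 100.4 and 50.2 CPM from 2iL and 63.9, 67.3 and 56.8 CPM from SL, below day 3 in each course. The falls from day 3 passed (log2 -0.87 ± 0.26 SE, adjusted p = 0.0236 from 2iL and log2 -1.06 ± 0.10 SE, adjusted p = 3.35e-05 from SL). From 2iL this fall did not pass without the N2B27 course (adjusted p = 0.141), and neither fall passed in a fit of the compared days alone.

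Ccne2 (ENSMUSG00000028212, chromosome 4, 11191351 to 11204779) had the narrowest range of the 10 genes, with a 4.40-fold span between its lowest and highest library. From 2iL it was at 19.9, 23.4 and 14.4 CPM at day 0 and 33.2, 31.2 and 22.98 CPM at day 1 (log2 0.61 ± 0.21 SE, adjusted p = 0.0370). The call was lost without the course term (adjusted p = 0.122) and without the FA or the N2B27 course. From SL it also rose, from 10.7 CPM at day 0 to 23.4, 23.6 and 19.9 CPM at day 1, but this step did not pass. At day 7 it was at 29.0, 47.1 and 34.3 CPM from 2iL and 30.8, 27.5 and 30.2 CPM from SL, where Ccne1 was at its lowest. None of the changes of Ccne2 from day 1 to day 3 or from day 3 to day 7 passed in either medium (adjusted p from 0.1302 to 0.601).

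Cdkn1b (ENSMUSG00000003031, chromosome 6, 134920401 to 134925513) fell with the exit from 2iL and rose again later. It was at 43.5, 47.1 and 48.9 CPM at day 0 and 21.4, 25.0 and 23.8 CPM at day 1 in serum, FA and N2B27, with no overlap (log2 -1.01 ± 0.28 SE, adjusted p = 0.0118). By day 3 it rose to 61.1, 30.1 and 33.4 CPM (log2 0.70 ± 0.28 SE, adjusted p = 0.0463). Both calls were lost without the course term (adjusted p = 0.0824 and 0.119) and without the FA or the N2B27 course. The second was also lost with no filter on low counts and in a fit of the compared days alone. From SL, Cdkn1b was at 35.4 CPM at day 0 and also lower at day 1, a step that did not pass. It went from 20.8, 20.4 and 24.8 CPM at day 1 to 59.7, 35.4 and 40.5 CPM at day 3, with no overlap (log2 0.96 ± 0.26 SE, adjusted p = 0.00783). Without the N2B27 course its adjusted p was 0.0508. The highest levels were in serum from 2iL, at 112 CPM at day 5 and 104 CPM at day 7. From SL, serum held 75.2 CPM at day 5 and 41.3 CPM at day 7, the latter below FA (47.9 CPM) and N2B27 (43.0 CPM).

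Cdkn2a (ENSMUSG00000044303, chromosome 4, 89274471 to 89294653, minus strand) is a gene with 2 promoters, each given here because the counts are for the whole gene and cannot separate p19Arf from p16Ink4a transcripts. The sequences are RefSeq's for GRCm38.p6, 250 bases upstream of each start site, and read 5′ to 3′ on the minus strand. Capitals mark the 1 match, in the p19Arf promoter, to the E2F letters TTTCCCGC, TTTGGCGC, TTTCGCGC or TTTGCCGC, searched on both strands. Such a match is in 1.86% of 32851 promoters of this length. The E-box CACGTG, bound by Myc with Max and sharing no full match with the E2F letters, was in 6.02% of them and in neither of the Cdkn2a promoters.
Cdkn2a, p19Arf start, chr4:89294620-89294869, minus strand: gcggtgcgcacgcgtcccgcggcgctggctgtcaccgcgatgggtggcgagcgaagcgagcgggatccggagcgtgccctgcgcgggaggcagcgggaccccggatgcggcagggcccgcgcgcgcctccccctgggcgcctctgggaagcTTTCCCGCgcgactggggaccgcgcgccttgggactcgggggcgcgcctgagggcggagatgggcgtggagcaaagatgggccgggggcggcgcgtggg
Cdkn2a, p16Ink4a start, chr4:89282193-89282442, minus strand: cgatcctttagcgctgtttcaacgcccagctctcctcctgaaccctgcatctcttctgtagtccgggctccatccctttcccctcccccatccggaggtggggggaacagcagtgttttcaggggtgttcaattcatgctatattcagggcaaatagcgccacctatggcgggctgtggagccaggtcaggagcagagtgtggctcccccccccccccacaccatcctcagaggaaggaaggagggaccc
A match of letters is a description of the sequence and not a binding site.

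The level of Cdkn2a differed between the courses. At day 1 from 2iL it was at 6.70, 9.23 and 8.53 CPM in serum, FA and N2B27, at day 3 at 3.8, 15.6 and 15.2 CPM and at day 7 at 0.719, 25.5 and 17.7 CPM. From SL it was at 2.45, 5.82 and 3.73, then 2.33, 9.95 and 9.91 and then 2.73, 14.6 and 10.7 CPM at the same days. At days 3 and 7 serum was the lowest of the 3 courses from both media. Averaged over courses, no step between days passed edgeR's test in either medium, with an adjusted p of 0.142 or more.

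Myc (ENSMUSG00000022346, chromosome 15, 61985391 to 61990374) rose from 2.02, 1.06 and 1.49 CPM at 2iL day 0 to 40.6, 27.6 and 21.9 CPM at day 1 in serum, FA and N2B27, a fitted change of 18.5-fold (log2 4.21 ± 0.54 SE, adjusted p = 3.54e-05). This was the second largest rise of the 10 genes, after Ccnd2. From SL, Myc went from 8.39 CPM to 31.9, 39.2 and 22.5 CPM, which did not pass (log2 1.94 ± 1.03 SE, adjusted p = 0.273). It did in a fit of the compared days alone. At day 2, FA held 40.8 CPM from 2iL and 59.0 CPM from SL, above serum and N2B27, which lay between 17.8 and 21.3 CPM. By day 3, N2B27 was the lowest course, at 5.90 CPM from 2iL and 6.69 CPM from SL, against 12.0 CPM or more in the other courses. The fall from day 1 to day 3 passed from SL (log2 -1.09 ± 0.40 SE, adjusted p = 0.0383). It did not pass without the course term (adjusted p = 0.351), without the serum or the N2B27 course, or in a fit of the compared days alone. From 2iL it did not pass (log2 -0.97 ± 0.46 SE, adjusted p = 0.0964).

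Mycn (ENSMUSG00000037169, chromosome 12, 12936093 to 12941914, minus strand) showed no change between days that passed edgeR's test in either medium, with an adjusted p of 0.478 or more, while the courses moved apart. In serum from 2iL it went from 53.1 CPM at day 0 to 133 CPM at day 2, and from SL it was at 106 CPM at day 2. In FA it was at 39.2 and 42.2 CPM and in N2B27 at 48.4 and 46.6 CPM, so both serum libraries lay above the other 4. At day 5 the order was turned, with N2B27 at 100.0 and 101 CPM above serum at 55.7 and 76.0 CPM. By day 7 N2B27 was above serum from 2iL (77.4 against 66.5 CPM) and below it from SL (71.4 against 86.4 CPM). Over days 5 and 7 the difference between these 2 courses did not pass. The RefSeq promoter of Mycn is shown because it holds the most matches to the E2F letters above among the 6 of the 10 genes whose promoters were found, with the 3 matches in capitals. The first and second overlap on opposite strands, and the E-box was not found in this window.
Mycn, chr12:12941837-12942086, minus strand, GRCm38.p6: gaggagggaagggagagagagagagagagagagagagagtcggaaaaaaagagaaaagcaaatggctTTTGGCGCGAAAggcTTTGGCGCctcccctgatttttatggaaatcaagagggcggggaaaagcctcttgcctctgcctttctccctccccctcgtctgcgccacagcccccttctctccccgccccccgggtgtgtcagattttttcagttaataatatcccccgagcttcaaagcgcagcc

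Mycl (ENSMUSG00000028654, chromosome 4, 122995652 to 123002485) fell and rose again from 2iL. It went from 42.8, 39.9 and 41.7 CPM at day 0 to 19.7, 14.4 and 16.2 CPM at day 1 (log2 -1.34 ± 0.45 SE, adjusted p = 0.0354). The call was lost without the course term (adjusted p = 0.0836) and without the FA or the N2B27 course. From SL it started lower, at 5.87 CPM, and was at 15.1, 10.1 and 8.23 CPM at day 1. From day 1 to day 3 it rose from both media, to 48.6, 55.8 and 123 CPM from 2iL (log2 2.14 ± 0.46 SE, adjusted p = 0.00150) and 52.8, 47.0 and 112 CPM from SL (log2 2.60 ± 0.33 SE, adjusted p = 2.16e-05). From SL the rise had passed by day 2, at 47.2, 30.6 and 33.5 CPM (log2 1.74 ± 0.33 SE, adjusted p = 0.00172). It did not pass without the FA course (adjusted p = 0.0751). No day 3 value overlapped day 1, and N2B27 was the highest course from both media. Its highest value was 145 CPM in N2B27 at day 5 from 2iL.

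**Figure D2:**
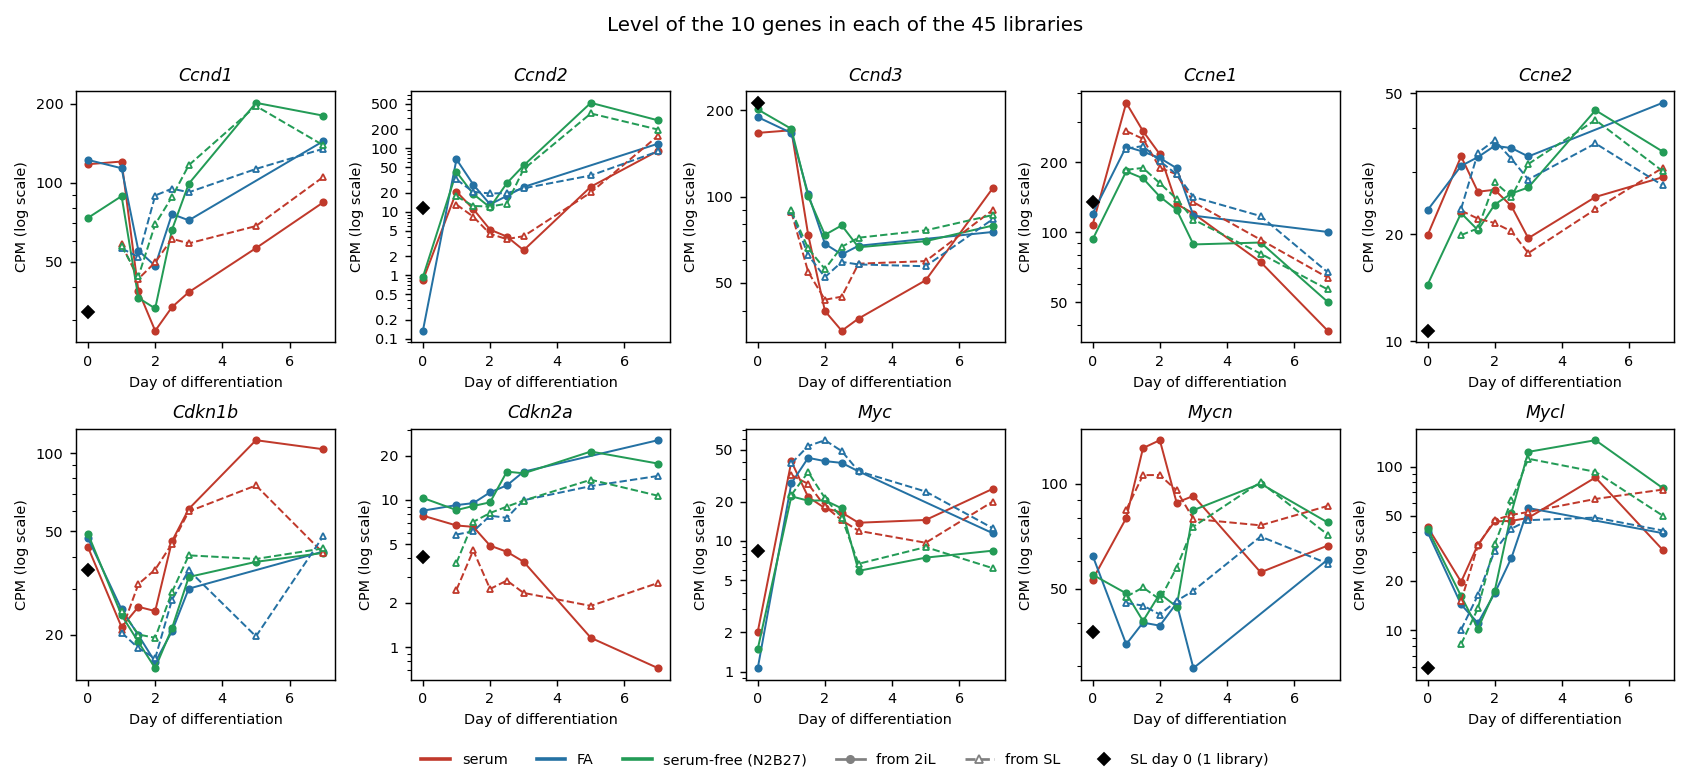
CPM on a log scale against the day of differentiation for the 10 genes, 1 point per library, with the course by color, cells from 2iL as filled circles with solid lines, cells from SL as open triangles with dashed lines and the single SL day 0 library as a diamond. No library stands at day 5 of FA from 2iL. At day 7, Cdkn2a is at 0.719 CPM in serum from 2iL and lies at 10.7 to 25.5 CPM in FA and N2B27, and Ccnd2 reaches 519 CPM in N2B27 at day 5.

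Most of the differences between the starting media at day 0 were not detected at day 1. At that day, Ccnd1 (log2 0.95 ± 0.30 SE, adjusted p = 0.0310) and Ccnd3 (log2 0.94 ± 0.21 SE, adjusted p = 0.00279) were higher in cells from 2iL, which are 2 of the 10 genes against 14.1% of 16467 genes tested. The Ccnd1 call was lost without the course term (adjusted p = 0.207) and without the FA course. That of Ccnd3 was lost without the FA or the N2B27 course. Over days 1.5 to 3, 1 of the 10 genes differed, against 33.4% of all genes. This was Ccnd1, which was lower in cells from 2iL (log2 -0.45 ± 0.15 SE, adjusted p = 0.0202), the opposite of day 0 and day 1. The call was lost without the course term (adjusted p = 0.140) and without the FA course. Over days 5 and 7, 0 of the 10 genes differed, against 1.02% of all genes in edgeR and 3.05% in DESeq2. In edgeR 1 of the 10, Cdkn1b, had an unadjusted p under 0.05, against 14.8% of all genes. Ccnd2, Myc and Mycl, which had differed most at day 0, had differences at day 1 of 0.95, 0.04 and 0.59 on the log2 scale (adjusted p = 0.407, 0.969 and 0.388).

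Whether the change itself differed between 2iL and SL was also tested. From day 0 to day 1, 0 of 10 genes passed, against 2.88% of 17107 genes in edgeR and 5.04% in DESeq2. In edgeR 4 of the 10 had an unadjusted p under 0.05, against 15.5% of all genes. The estimates were log2 5.01 ± 1.79 SE, adjusted p = 0.128 for Ccnd2, log2 2.27 ± 1.06 SE, adjusted p = 0.287 for Myc, log2 -2.33 ± 0.88 SE, adjusted p = 0.159 for Mycl and log2 1.02 ± 0.44 SE, adjusted p = 0.242 for Ccnd3. From day 1 to day 3, 0 of 10 passed in edgeR, against 0.984% of all genes, and 1 passed in DESeq2, Ccnd3, against 2.23%. In edgeR 2 of the 10 had an unadjusted p under 0.05, against 11.8% of all genes. They were Ccnd1 (log2 -1.29 ± 0.42 SE, adjusted p = 0.163) and Ccnd3 (log2 -1.07 ± 0.30 SE, adjusted p = 0.0805). From day 3 to day 7, 0 of 10 genes passed in either tool, and 0 had an unadjusted p under 0.05 in edgeR. Over all genes the share was 0% in edgeR, with 584 genes (3.55%) at an unadjusted p under 0.05, and 21 genes were called by DESeq2. With 1 library at SL day 0, the steps from day 0 that passed from 2iL and not from SL are not shown to differ.

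Between courses, Mycn and Mycl were higher in serum over days 1 to 2, whereas over days 5 and 7 the largest differences were those of Cdkn2a and Ccnd2. Over days 1 to 2, serum and N2B27 differed in 6 of the 10 genes, against 31.6% of 16467 genes. Mycn (log2 1.07 ± 0.15 SE, adjusted p = 6.71e-06), Mycl (log2 0.93 ± 0.19 SE, adjusted p = 0.000499) and Ccne1 (log2 0.50 ± 0.11 SE, adjusted p = 0.00125) were higher in serum, and Cdkn2a (log2 -0.87 ± 0.24 SE, adjusted p = 0.00701), Ccnd2 (log2 -0.98 ± 0.36 SE, adjusted p = 0.0369) and Ccnd3 (log2 -0.41 ± 0.13 SE, adjusted p = 0.0176) were lower. Without a term for the medium and day, the calls of Mycl, Ccnd2 and Ccnd3 were lost (adjusted p = 0.0534, 0.148 and 0.471). Those of Ccnd2 and Ccnd3 were also lost in either medium alone. FA and N2B27 differed in 0 of 10 genes in edgeR, against 2.13% of all genes. In edgeR 4 of the 10 had an unadjusted p under 0.05, against 16.2% of all genes, and DESeq2 called 2, Ccne2 and Myc, against 6.01%. Myc had an estimate of log2 0.81 ± 0.25 SE, adjusted p = 0.0907. Serum and FA differed in 6 of 10, against 25.3%. Mycn (log2 1.39 ± 0.15 SE, adjusted p = 5.93e-07), Mycl (log2 1.01 ± 0.19 SE, adjusted p = 0.000355) and Cdkn1b (log2 0.51 ± 0.18 SE, adjusted p = 0.0384) were higher in serum, and Ccnd2 (log2 -1.47 ± 0.35 SE, adjusted p = 0.00368), Cdkn2a (log2 -0.86 ± 0.24 SE, adjusted p = 0.00968) and Myc (log2 -0.72 ± 0.25 SE, adjusted p = 0.0380) were lower. The calls of Cdkn1b, Cdkn2a and Myc were lost without the term for medium and day (adjusted p = 0.0834, 0.0732 and 0.0693). The call of Cdkn1b was also lost with scaling to library totals, those of Cdkn1b and Myc in either medium alone, and that of Ccnd2 from SL alone.

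Over days 5 and 7, serum and N2B27 differed in 7 of the 10 genes, against 46.8% of all genes. Cdkn2a was lower in serum by the largest amount (log2 -3.42 ± 0.32 SE, adjusted p = 1.99e-08), followed by Ccnd2 (log2 -2.73 ± 0.46 SE, adjusted p = 3.88e-05) and Ccnd1 (log2 -1.31 ± 0.18 SE, adjusted p = 3.10e-06). The 4 serum libraries held 0.719 to 2.73 CPM of Cdkn2a and the 4 N2B27 libraries 10.7 to 21.3 CPM, with no overlap. Ccne2 (log2 -0.55 ± 0.15 SE, adjusted p = 0.00350) and Mycl (log2 -0.60 ± 0.22 SE, adjusted p = 0.0279) were also lower, and Myc (log2 1.08 ± 0.33 SE, adjusted p = 0.00844) and Cdkn1b (log2 0.91 ± 0.22 SE, adjusted p = 0.00138) were higher in serum. In the libraries from SL alone, the calls of Ccnd1, Ccnd2 and Cdkn2a held and the other 4 were lost. Mycl was also lost without the term for medium and day (adjusted p = 0.228) and with scaling to library totals. In a fit of the libraries of these days alone, Cdkn1b, Myc and Mycl were lost.

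FA and N2B27 differed at these days in 5 of 10 genes, against 36% of all genes. Ccnd2 (log2 -2.48 ± 0.50 SE, adjusted p = 0.000442), Mycl (log2 -0.88 ± 0.25 SE, adjusted p = 0.00710), Ccnd1 (log2 -0.60 ± 0.20 SE, adjusted p = 0.0235) and Mycn (log2 -0.56 ± 0.20 SE, adjusted p = 0.0333) were lower in FA and Ccne1 (log2 0.51 ± 0.15 SE, adjusted p = 0.0113) was higher. All 5 calls were lost in a fit of the 11 libraries of these days alone. Ccnd1, Ccne1 and Mycl were also lost without the term for medium and day (adjusted p = 0.306, 0.265 and 0.0534) and Mycn with scaling to library totals. Myc passed without that term (adjusted p = 0.0438). Serum and FA differed in 4 of 10, against 19.8%. Cdkn2a was lower in serum (log2 -3.50 ± 0.34 SE, adjusted p = 2.19e-07), as were Ccnd1 (log2 -0.72 ± 0.19 SE, adjusted p = 0.0108) and Ccne1 (log2 -0.66 ± 0.15 SE, adjusted p = 0.00334), and Cdkn1b was higher (log2 1.099 ± 0.25 SE, adjusted p = 0.00316). Here Cdkn2a held in every alternative, whereas Ccnd1 and Ccne1 were lost without the term for medium and day (adjusted p = 0.185 and 0.157) and these 2 and Cdkn1b in a fit of the libraries of these days alone and from SL alone. The mesoderm marker sums of these libraries, given above, were higher in serum with no overlap. The neural sums in FA overlapped those of both other courses. The 6 endoderm markers summed to 1152 to 2674 CPM in N2B27, 109 to 347 CPM in FA and 111 to 1497 CPM in serum. For these the range in serum overlapped both others. Differences of marker sums between courses were not tested. The 4 muscle and fibroblast markers summed to 69.2 to 710.3 CPM in FA and 1.53 to 66.0 CPM in the other courses. The part of these cells in the differences was not tested. The 3 comparisons share libraries in pairs.

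**Figure D3:**
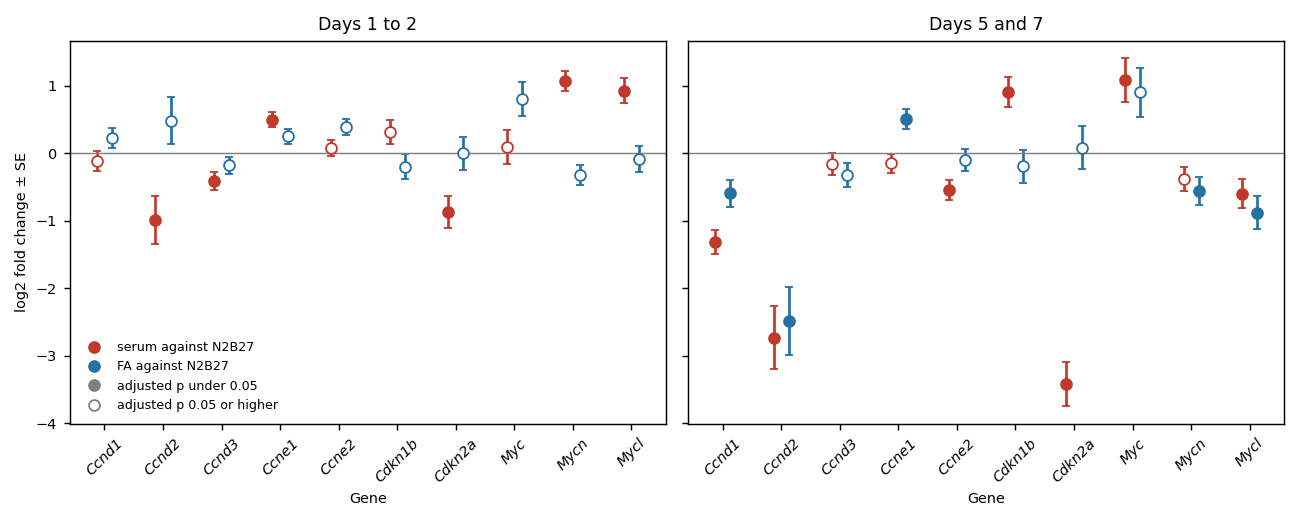
log2 fold change with its SE for the 10 genes, serum against N2B27 in red and FA against N2B27 in blue, over days 1 to 2 on the left and days 5 and 7 on the right, with filled points where the adjusted p was under 0.05. Cdkn2a in serum goes from -0.87 to -3.42 between the panels, the Mycl point in serum goes from 0.93 to -0.60, and Ccnd2 lies below -2 in both comparisons at days 5 and 7.

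In a further comparison, chosen after the values were seen, the change from days 1 to 2 to days 5 and 7 was tested for a difference between courses. Between serum and N2B27 it differed for 7 of 10 genes, against 28.6% of 16467 genes. All 7 rose less or fell more in serum, with the largest differences for Cdkn2a (log2 -2.55 ± 0.39 SE, adjusted p = 3.99e-05), Ccnd2 (log2 -1.75 ± 0.58 SE, adjusted p = 0.0242), Mycl (log2 -1.52 ± 0.29 SE, adjusted p = 0.000337) and Mycn (log2 -1.46 ± 0.23 SE, adjusted p = 5.54e-05). The others were Ccnd1 (log2 -1.200 ± 0.23 SE, adjusted p = 0.000429), Ccne1 (log2 -0.65 ± 0.17 SE, adjusted p = 0.00715) and Ccne2 (log2 -0.63 ± 0.19 SE, adjusted p = 0.0141). Between FA and N2B27 it differed for 2 of 10, against 18.6%, which were Ccnd2 (log2 -2.97 ± 0.61 SE, adjusted p = 0.00124) and Ccnd1 (log2 -0.82 ± 0.25 SE, adjusted p = 0.0225). Between serum and FA it differed for 3 of 10, against 9.14%, which were Cdkn2a (log2 -2.64 ± 0.41 SE, adjusted p = 0.000257), Mycn (log2 -1.22 ± 0.24 SE, adjusted p = 0.00254) and Ccne1 (log2 -0.90 ± 0.19 SE, adjusted p = 0.00319). From SL alone, serum against N2B27 kept 2 calls, of Cdkn2a and Mycn, FA against N2B27 kept that of Ccnd2 and serum against FA that of Mycn. From 2iL alone, both calls between FA and N2B27 were lost (adjusted p = 0.111 for Ccnd2 and 0.147 for Ccnd1), as were Ccnd2 between serum and N2B27 and Mycn between serum and FA. Without the term for medium and day, Ccnd2 and Ccne1 did not pass between serum and N2B27 (adjusted p = 0.213 and 0.102). Nor did Ccnd1 between FA and N2B27 (adjusted p = 0.364) and Ccne1 between serum and FA (adjusted p = 0.154).

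Reads per exon kilobase allow the members of a family to be compared within a library. By this measure Ccnd1 gave the most of the D-type cyclin signal in 38 of 45 libraries, Ccnd3 in 6 and Ccnd2 in 1. That order depends on the exon lengths, which are 4709 bases for Ccnd1 and 8775 for Ccnd3. Without division by length, Ccnd3 held 64.0% of the reads and Ccnd1 35.7% at 2iL day 0, and 53.3% and 34.4% at SL day 1. At SL day 3 Ccnd1 led in reads as well, with 50.4% against 37.4%. At 2iL day 0, Ccnd1 and Ccnd3 held 50.6% ± 8.88 (SD, n = 3) and 49.2% ± 8.81 of the signal per kilobase and Ccnd2 held 0.162% ± 0.118, while the SL library held 21.1%, 75.1% and 3.803%. By day 7 from 2iL the shares were 51.4% ± 7.20 for Ccnd1, 19.7% ± 9.83 for Ccnd3 and 28.9% ± 8.02 for Ccnd2. The share of Ccnd3 was thus lower and that of Ccnd2 higher than at day 0, while the share of Ccnd1 differed by less than its SD, with the largest spread at day 5, where N2B27 and serum were far apart.

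Between the E-type cyclins, Ccne1 gave more signal per kilobase than Ccne2 in all 45 libraries. Its share went from 88.1% ± 1.23 at 2iL day 0 to 67.5% ± 5.54 at day 7, and from SL from 93.0% ± 0.76 at day 1 to 73.5% ± 2.56 at day 7 (SD, n = 3). Within the Myc family, Mycn gave the most in 33 of 45 libraries, Myc in 7 and Mycl in 5. The share of Myc went from 2.02% ± 0.68 at 2iL day 0 to 35.3% ± 6.02 at day 1 and was at 8.12% ± 5.85 (n = 2) at day 5, while Mycl went from 36.7% ± 2.48 to 13.6% ± 2.14 and 50.4% ± 2.24. At day 7, with all 3 courses, Myc was at 14.9% ± 9.14 and Mycl at 30.5% ± 10.0, below its day 0 mean. The share of Mycn stayed between 41.5% and 61.3% on average from 2iL. These shares divide by the exon bases of all annotated transcripts, so they depend on which transcripts a cell uses, and they are descriptions with no test.

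**Figure D4:**
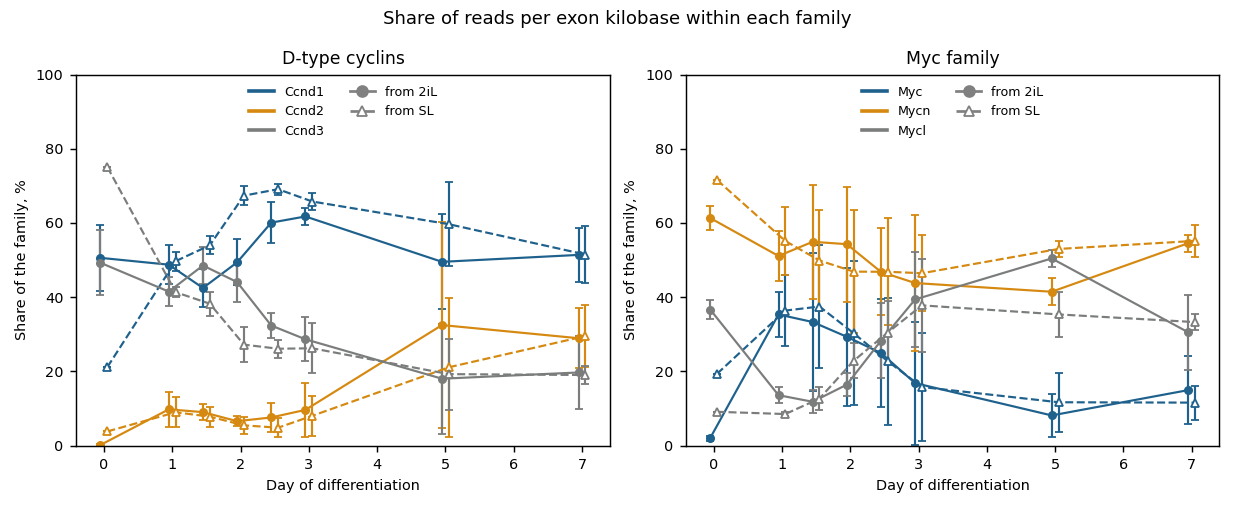
Mean share in percent of the reads per exon kilobase of the D-type cyclin genes (left) and of the Myc family (right) against the day of differentiation, from 2iL with solid lines and from SL with dashed lines, with bars of 1 SD over the 3 courses (2 at day 5 from 2iL, none for the single SL day 0 library). Myc goes from 2.02% to 35.3% of its family in the first day from 2iL, and Ccnd3 goes from 49.2% to 19.7% of the D-type cyclins by day 7.

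The other genes of the G1 pathway were described by lists. Of 5 other Cdk inhibitor genes, 5 were lower in serum than in N2B27 at days 5 and 7, as were 3786 of 16467 genes tested. Their median was -1.35 on the log2 scale, against 0.01 for all genes. The largest were Cdkn2c, which encodes p18Ink4c (log2 -3.33 ± 0.41 SE, adjusted p = 6.02e-07), and Cdkn2b, the neighbor of Cdkn2a, which encodes p15Ink4b (log2 -2.37 ± 0.33 SE, adjusted p = 3.05e-06). Against FA, 3 of the 5 were lower in serum, as were 10.2% of all genes, led by Cdkn2b (log2 -3.34 ± 0.36 SE, adjusted p = 5.05e-07) and Cdkn2c (log2 -1.28 ± 0.46 SE, adjusted p = 0.0496). At day 0, Cdkn1c, which encodes p57Kip2, was lower in 2iL than in SL (log2 -3.71 ± 0.55 SE, adjusted p = 0.00147), and Cdkn2c (log2 1.54 ± 0.43 SE, adjusted p = 0.0249) and the p21 gene Cdkn1a (log2 1.29 ± 0.30 SE, adjusted p = 0.0119) were higher. From 2iL day 0 to day 1, Cdkn1c rose (log2 4.49 ± 0.60 SE, adjusted p = 5.69e-05) and Cdkn1a fell (log2 -2.05 ± 0.35 SE, adjusted p = 0.000426). Cdkn1a rose from day 3 to day 7 from 2iL (log2 1.49 ± 0.34 SE, adjusted p = 0.00564) and from SL (log2 1.57 ± 0.19 SE, adjusted p = 0.000117).

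Among the 6 kinase and Rb family genes, 3 were higher and 1 lower in 2iL at day 0, against 13.5% and 17.3% of all genes, led by Cdk6 (log2 1.16 ± 0.28 SE, adjusted p = 0.0148) and Cdk4 (log2 0.81 ± 0.19 SE, adjusted p = 0.0108), with Rb1 lower (log2 -1.28 ± 0.26 SE, adjusted p = 0.00638). From day 1 to day 3 from 2iL, 3 of 6 fell, against 21.99% of all genes, and 3 of 6 changed, against 45.6%. The falls were led by Rbl2 (log2 -1.19 ± 0.22 SE, adjusted p = 0.000437) and Cdk6 (log2 -0.99 ± 0.27 SE, adjusted p = 0.00640), and Cdk6 rose again by day 7 (log2 1.43 ± 0.27 SE, adjusted p = 0.00153). Of the 10 E2F family genes, 5 rose and 1 fell from 2iL day 0 to day 1, against 14.6% and 13.96% of all genes. E2f2, an activator, rose the most (log2 1.78 ± 0.29 SE, adjusted p = 0.000321), followed by the repressor E2f8 (log2 1.51 ± 0.27 SE, adjusted p = 0.000638), and both fell from day 1 to day 3 (log2 -2.73 ± 0.30 SE, adjusted p = 5.27e-06 and log2 -1.31 ± 0.27 SE, adjusted p = 0.000996).

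Of 12 S phase genes, 7 were higher and 0 lower in 2iL than in SL at day 0, against 13.5% and 17.3% of all genes. Their median was 0.56 on the log2 scale, against 0.01 for all genes. The largest differences were those of the replication licensing genes Mcm3 (log2 0.81 ± 0.20 SE, adjusted p = 0.0139) and Mcm2 (log2 0.72 ± 0.18 SE, adjusted p = 0.0167). From 2iL, 2 rose and 0 fell at day 1, against 14.6% and 13.96% of all genes. From day 1 to day 3, 10 fell with a median of -0.38, against 21.99% of all genes, and from day 3 to day 7, 8 fell with a median of -0.51, against 13.9%. These falls were led by Cdc6 (log2 -0.68 ± 0.16 SE, adjusted p = 0.00253) and Mcm2 (log2 -0.78 ± 0.11 SE, adjusted p = 0.000167). From SL, 4 fell from day 1 to day 3, where 21.1% of all genes fell and 43.9% changed, and 10 fell from day 3 to day 7, against 16.0%. None rose in either step.

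Of 12 Myc target genes of nucleolus and nucleotide metabolism, 4 rose and 1 fell in the first day from 2iL, against 14.6% and 13.96% of all genes. They were led by the ornithine decarboxylase gene Odc1 (log2 1.199 ± 0.21 SE, adjusted p = 0.000608), with Cad falling (log2 -0.65 ± 0.10 SE, adjusted p = 0.000144). From day 3 to day 7, 9 fell from 2iL with a median of -0.49, against 13.9% of all genes, and 12 of 12 fell from SL with a median of -0.56, against 16.0%. Both were led by the spermidine synthase gene Srm (log2 -0.68 ± 0.16 SE, adjusted p = 0.00686 and log2 -0.79 ± 0.14 SE, adjusted p = 0.00124). At days 5 and 7, 9 of 12 were higher and 1 lower in serum than in N2B27, against 23.8% and 22.99% of all genes, led by Npm1 (log2 0.74 ± 0.08 SE, adjusted p = 2.01e-07). In turn, 8 of 12 were higher and 0 lower in FA than in N2B27, against 18.6% and 17.3%, led by Npm1 as well (log2 0.64 ± 0.09 SE, adjusted p = 8.90e-06). Myc was also higher in serum than in N2B27 at these days, whereas Mycl was lower. Both calls were lost from SL alone and in a fit of the libraries of these days alone. In FA against N2B27, Myc did not pass edgeR's test, and Mycn and Mycl were lower in FA. A link between the Myc genes and these targets was not tested. In the network of Max partners, Mxd4, an antagonist of Myc, rose in the first day from 2iL (log2 2.45 ± 0.38 SE, adjusted p = 0.000186). Of its 8 genes, 5 fell from day 1 to day 3, against 21.99% of all genes, led by Mxd3 (log2 -1.17 ± 0.28 SE, adjusted p = 0.00296) and Mxd1 (log2 -0.86 ± 0.18 SE, adjusted p = 0.00105). Of 6 genes for the turnover of cyclin E, p27 and Myc, 3 rose and 1 fell in the first day, against 14.6% and 13.96% of all genes, led by Cks1b (log2 0.81 ± 0.14 SE, adjusted p = 0.000397) and Skp2 (log2 0.51 ± 0.16 SE, adjusted p = 0.0276), which are part of the ligase that degrades p27. The kinase gene Gsk3b fell (log2 -0.91 ± 0.12 SE, adjusted p = 4.62e-05).

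Across the 45 libraries, which share courses and days, the genes with the pattern most like each member were sought by Pearson's r of log2(CPM + 0.1) among 13767 genes with a mean of at least 1 CPM. The closest were Tle4 (r = 0.926) and Gm10184 (r = 0.926) for Ccne1, Tsc1 (r = 0.915) and Hdac5 (r = 0.902) for Cdkn1b, and Slc7a7 (r = 0.899) and Mctp2 (r = 0.890) for Myc. Those of Ccnd3 were Mks1 (r = 0.895) and 9530053A07Rik (r = 0.893), those of Ccnd2 were Rprm (r = 0.889) and Fam20c (r = 0.877), and those of Mycl were Pdzrn3 (r = 0.877) and Hip1 (r = 0.874). Cdkn2a was most like Hoxa3 (r = 0.826) and Hoxa2 (r = 0.813), Ccnd1 like Tirap (r = 0.850) and Tmem14c (r = 0.849), Ccne2 like Bbs12 (r = 0.811) and Prkrir (r = 0.802), and Mycn like Hlf (r = 0.771) and Epn3 (r = 0.751). Within the 10 genes, the highest r was 0.63 between Ccnd2 and Ccne2 and the lowest was -0.70 between Ccne1 and Cdkn1b. These values describe the 45 libraries and were not tested.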

How the data were processed

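Total RNA was depleted of ribosomal RNA and sequenced with a directional kit. The authors mapped the reads to GRCm38 (mm10) with TopHat2, counted them per gene by strand with featureCounts, tools that the submitters' processing notes list with DESeq2, and deposited raw counts per gene for each of the 45 libraries, with no normalization. The counts carry the gene symbol, and 34599 of the 35372 genes were found in GENCODE M21. Ccnd1, Ccnd2, Ccnd3 and Ccne2 overlap exons of other genes on the opposite strand only, which the strand-specific counting keeps apart. From the counts, CPM (counts over the library total) and all tests were computed here. The main test was edgeR 4.0.16's quasi-likelihood test in R 4.3.3 with TMM normalization and filterByExpr, with p-values adjusted by the Benjamini-Hochberg method over all genes tested at a threshold of 0.05, and all 10 genes passed the filter in every comparison. The SE given with a log2 difference was derived from the test, as the absolute difference divided by the square root of its F value. It is not a separately fitted error.

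Days were compared within 2iL (23 libraries) and within SL with the course as a block, apart from the steps from SL day 0, which belongs to no course. Starting media were compared over the 41 libraries from day 1 on with the course as a block, and at day 0 over 3 libraries against 1. Courses were compared in the same 41 libraries, paired by medium and day. The pairing comes from the labels. Deviations from the day means had a mean correlation of 0.313 between libraries of the same course and medium (108 pairs, lowest 0.049) and -0.154 between courses. Subtracting the day mean makes the 3 course deviations of a day cancel out. The negative value between courses therefore follows from the positive one within courses and adds nothing on the pairing. A chi-square comparison of counts found no duplicate in the 43 pairs that shared both starting medium and day. Pairs from different media or days were not compared. Alternatives were DESeq2 1.42.0, RLE scaling, scaling to library totals (added after the values were seen), no filter, no block, each course left out, and fewer libraries in the fit. Some of the tests were run on simulated counts of independent libraries. These held no effect of course and no link between successive days, so they could not check the use of courses or days as replicates. Exon lengths are the merged exons of GENCODE M21, and promoters are RefSeq's. The genes and lists were chosen with earlier results of these data known. All 10 genes are reported, and from each pathway list the 2 largest rises and falls past the threshold in the main comparisons could be named. Counting error is the only error that the depth floors cover.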

Additional observations from a re-analysis of the deposited data

Results flagged for a closer look

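The change from days 1 to 2 to days 5 and 7 differed between courses in a test of the difference itself, fitted to both starting media together. This comparison was chosen after the values were seen. Between serum and N2B27 the difference on the log2 scale was -2.55 for Cdkn2a, -1.75 for Ccnd2, -1.52 for Mycl, -1.46 for Mycn, -1.200 for Ccnd1, -0.65 for Ccne1 and -0.63 for Ccne2. Between FA and N2B27 it was -2.97 for Ccnd2 and -0.82 for Ccnd1, and between serum and FA it was -2.64 for Cdkn2a, -1.22 for Mycn and -0.90 for Ccne1. From SL alone, only the calls of Cdkn2a and Mycn held between serum and N2B27, that of Ccnd2 between FA and N2B27 and that of Mycn between serum and FA. From 2iL alone both calls between FA and N2B27 were lost, as were Ccnd2 between serum and N2B27 and Mycn between serum and FA. Without the term for medium and day, Ccnd2 and Ccne1 were lost between serum and N2B27. Ccnd1 between FA and N2B27 and Ccne1 between serum and FA were lost as well. A negative value means that the gene rose less or fell more in the course named first. The mesoderm, endoderm and neural marker sums also varied over the same days, the latter 2 with overlap between some courses. Their part in these values was not tested.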

How the results depend on the processing

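Of 240 values for the 10 genes in all comparisons, with those chosen after the values were seen, 77 passed the threshold. The share of all genes that passed ran from 0% to 46.8% between these comparisons, so the pooled count is not a result about the 10 genes. Of the 77 values, 0 changed sign in any alternative, 54 lost their call in at least 1 of them, and 37 of the other values gained one. A further 84 values that passed on neither side changed sign. Leaving out the course as a block (or medium and day between courses) ended 27 calls, which makes it the alternative with most losses, and RLE scaling and DESeq2 ended 0, with 12 calls gained by DESeq2.

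Of the 10 genes, the count past the threshold for 2iL against SL at day 0 went from 7 to 2 with the spread over all 45 libraries (6 to 7 with 1 library left out). With no replicate block it went from 6 to 3 at 2iL day 1 (3 to 6 with 1 course left out), from 2 to 1 for 2iL day 7 against day 3, from 3 to 1 for SL day 7 against day 3, from 2 to 1 between media at day 1, from 1 to 0 over days 1.5 to 3, from 6 to 3 for serum against N2B27 and against FA at days 1 to 2, from 5 to 3 for FA against N2B27 and from 4 to 2 for serum against FA at days 5 and 7, and from 2 to 1 for the change between FA and N2B27. With DESeq2 it went from 2 to 4 for 2iL day 7 against day 3, with 28.2% of all genes called in edgeR and 32.3% in DESeq2. Between media over days 1.5 to 3 it went from 1 to 2 (33.4% and 35.1% of all genes). For FA against N2B27 at days 1 to 2 it went from 0 to 2 (2.13% and 6.01%). For the difference between media of the change from day 1 to day 3 it went from 0 to 1 (0.984% and 2.23%). Scaling to library totals gave 1 in place of 2 for SL day 1 against day 0 and 3 in place of 0 for FA against N2B27 at days 1 to 2, and no filter on low counts gave 1 for SL day 1 against day 0. Fits of the compared days alone gave 0 for day 7 against day 3 from 2iL and from SL, and 4 for SL day 1 against day 0. Fits of the window alone gave 2 for FA against N2B27 at days 1 to 2, and at days 5 and 7 gave 4 for serum against N2B27, 0 for FA against N2B27 and 1 for serum against FA. Libraries from SL alone gave 3 for serum against FA at days 1 to 2, and 3, 2 and 1 for serum against N2B27, FA against N2B27 and serum against FA at days 5 and 7, and 2, 1 and 1 for the change between those pairs. Libraries from 2iL alone gave 1 for FA against N2B27 at days 5 and 7 and 0 for its change. These fits have fewer samples. Apart from DESeq2, the share of all genes called under each alternative is not given here. The counts therefore do not show whether calls were lost or gained more often for the 10 genes than for other genes.

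With 1 course left out, the counts ranged from 1 to 5 for 2iL day 7 against day 3, 1 to 4 for 2iL day 2 against day 1, 0 to 2 for SL day 1 against day 0, 1 to 2 for SL day 2 against day 1, 3 to 7 for SL day 3 against day 1, 0 to 3 between media at day 1 and over days 1.5 to 3, 0 to 1 between media over days 5 and 7, and 0 to 1 for the difference between media of the changes from day 0 to day 1 and from day 1 to day 3. These counts, too, are given without the share of all genes called in the same fits. The cause of these shifts was not tested. Reads not divided by exon length moved 16 of 30 shares of the D-type cyclin and Myc families by more than 1 SD. Exon lengths run from 4709 to 9409 bases in the first family and from 2717 to 4038 in the second. The main limits are 1 library per medium, course and day, 1 library at SL day 0, 1 cell line, and courses in place of replicates.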
